A study of Homo sapiens with 12 samples.

Results

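The products of 42 genes that build ribosomes in the nucleolus were followed through RNA-seq of human kidney cancer cells of the clear cell type in which the clock factor BMAL1 was depleted. The list was drawn up with earlier results of these data known. Its members were taken by name from the deposited count table, where all 42 of the 42 names were found among 38021 gene names. They fell into 6 roles, namely 5 genes of RNA polymerase I and its cofactor, 3 of the box C/D snoRNP core, 4 of the box H/ACA snoRNP core, 12 of small subunit assembly, 14 of large subunit assembly, and 4 encoding abundant nucleolar proteins and a nucleolar helicase. The cells were 786O, an established human line without functional VHL, and WT8, which is 786O with wildtype VHL added back. Both lines had been infected with lentivirus, selected in puromycin and kept in it, so the controls carry a vector too. That vector held either a scrambled shRNA (shControl) or an shRNA that targets BMAL1 (shBMAL1). The 4 resulting groups had 3 biological replicates each: 786O shControl, 786O shBMAL1, WT8 shControl and WT8 shBMAL1. WT8 is 1 derived line and the labels name 1 kind of shRNA against BMAL1, so VHL cannot be told apart from other differences between the lines, nor BMAL1 from other effects of that shRNA.

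The nucleolus is where RNA polymerase I transcribes the long precursor of ribosomal RNA, and where that precursor is cut, modified and bound by ribosomal proteins. Box C/D snoRNPs place methyl groups on ribose and box H/ACA snoRNPs turn uridine into pseudouridine, each guided by a small nucleolar RNA. A large assembly called the small subunit processome then folds the 18S part of the precursor, while a different set of factors, among them the complex of PES1, BOP1 and WDR12, matures the large subunit. Growing tumor cells are known for heavy use of this pathway. BMAL1 with its partner CLOCK binds the E-box CACGTG, to which MYC, a known activator of nucleolar genes, also binds.

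Library totals ran from 33182025 to 36477509 counts, and 16838 genes had enough counts to be tested, among them all 42 members. No member had fewer than 575 counts in any library. The library labels were checked first. ARNTL, the gene of BMAL1, had 378 to 464 counts in 786O shControl and 128 to 142 in 786O shBMAL1. Its WT8 counts were 309 to 355 for shControl and 56 to 72 for shBMAL1. VHL reached at most 21.3 CPM in 786O and at least 631 CPM in WT8. The renal carcinoma markers PAX8, KRT8, KRT18, VIM, CDH2 and CDH6 were present in every library. Of 10 leukocyte, endothelial and fibroblast markers, CD3E had 0 counts throughout and 8 others reached at most 32 counts in any library. The fibroblast gene LUM was higher, with 73 to 105 counts in 786O shControl and 209 to 265 in 786O shBMAL1. In WT8 LUM had 12 to 27 counts for shControl and 264 to 278 for shBMAL1, and its part in the results was not tested. A marker list of 12 proliferation genes set WT8 shControl apart, with a summed level of 542 to 574 CPM against 2717 to 2786 in 786O shControl, 2728 to 2848 in 786O shBMAL1 and 2569 to 2584 in WT8 shBMAL1. All 12 were called lower in WT8 shControl than in 786O shControl and all 12 were called higher with shBMAL1 in WT8. The part of this difference in the results on ribosome biogenesis genes was not tested. In bulk RNA, fewer cells that express a gene and less of its RNA per cell cannot be told apart.

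Summed over the 42 members, the level in CPM (counts over a library size scaled by TMM) was lowest in 786O shControl, at 7481, 7333 and 7320.2 CPM. It was 8056, 7990.2 and 7904 CPM in 786O shBMAL1, 8563, 8876 and 8513 CPM in WT8 shControl, and 9248, 9134 and 9118 CPM in WT8 shBMAL1. The 4 groups did not overlap in this sum, and each line had more with shBMAL1 than with shControl. In WT8 that difference rested on NPM1 (255 CPM more with shBMAL1), TCOF1 (205 CPM more) and NCL (199.7 CPM more), the 3 that added most to it. Without these 3, which were chosen after their values were seen, the other 39 members summed to 6537 to 6728 CPM in WT8 shControl, above the 6436 to 6519 of WT8 shBMAL1. In 786O the same 39 had 4982 to 5067 CPM with shControl and 5351 to 5428 with shBMAL1. NCL alone held 1405 to 1707 CPM of the sum over all 42. Per kilobase of annotated exon, levels averaged over the libraries ran from 3.63 CPM for UTP15 to 177 CPM for NCL, with NOP56 (85.6), NHP2 (81.1) and BOP1 (79.6) next below NCL. The group with the highest mean was WT8 shBMAL1 for 20 members, WT8 shControl for 14, 786O shBMAL1 for 7 and 786O shControl for 1. The lowest mean lay in 786O shControl for 20 members, WT8 shControl for 10, 786O shBMAL1 for 7 and WT8 shBMAL1 for 5. Highest and lowest groups were not counted over all genes.

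**Figure D1:**
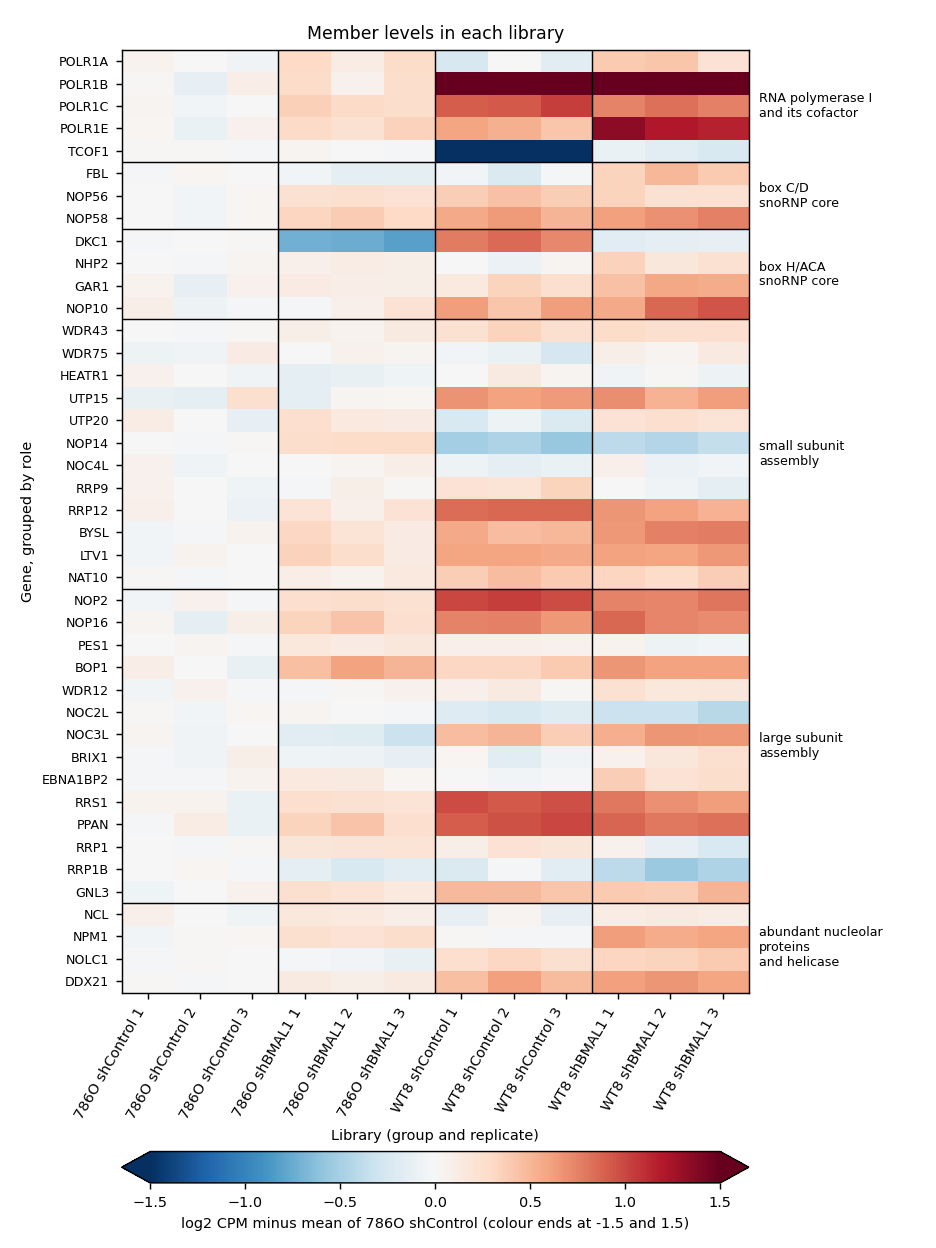
Level of each of the 42 members (vertical, by role) in each of the 12 libraries (horizontal), as log2 CPM minus the mean of the 3 786O shControl libraries, with red for higher and blue for lower. POLR1B is the darkest red in both WT8 groups, TCOF1 is dark blue in WT8 shControl alone, and DKC1 is blue in 786O shBMAL1.

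Each comparison was tested with edgeR's quasi-likelihood test over all 16838 genes, and a gene was called at a Benjamini-Hochberg adjusted p under 0.1. All adjusted p-values of single genes below are from this test. With shBMAL1 in 786O, 24 members were called higher and 5 lower, where 48.9% of all genes were called (24.5% higher and 24.4% lower). The median log2 change of the members was 0.13, against 0.00 over all genes tested. The 2 groups were free of overlap for 32 of the 42 members, against 50.9% of all genes. With shBMAL1 in WT8, 21 members were called higher and 15 lower, where 69.8% of all genes were called (32.9% higher and 36.9% lower), and the median was 0.08 against -0.04 over all genes. The groups did not overlap for 31 members, against 67.6% of all genes. These effects were small for most members. Past a fold of 1.5, 0 called members were higher and 1 was lower in 786O, where 6.68% of all genes were called and past that fold upward and 7.62% downward. In WT8 3 were higher and 1 lower, against 14.2% and 21.6% of all genes.

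WT8 shControl had 25 members called higher and 8 lower than 786O shControl, where 79.5% of all genes were called (39.3% higher and 40.1% lower). The median was 0.27 against 0.00 over all genes tested. Scaling by library totals alone gave a median of 0.39 for the members and 0.12 over all genes in this comparison. Such a change of scaling moves nearly all genes by the same amount, so it cannot test the gap between these medians. With that scaling 31 members were called higher and 3 lower, where 13506 of all genes tested were called in either direction. The groups did not overlap for 31 members, against 77.5% of all genes. Between the shBMAL1 groups, WT8 had 28 members called higher and 6 lower than 786O, where 73% of all genes were called (35.9% higher and 37.1% lower). The median was 0.24, and 33 members showed no overlap, against 71% of all genes. The interaction, meaning the WT8 log2 change on BMAL1 depletion less the 786O one, was called for 32 members, 12 higher and 20 lower, where 56% of all genes were called (27.4% higher and 28.6% lower).

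RNA polymerase I transcribes the ribosomal RNA precursor. With shBMAL1 in 786O the 4 members that encode its subunits were all called higher, where 24.5% of all genes were. In WT8 they did not move as a block and were called in both directions. The gene of its second-largest subunit, POLR1B (chromosome 2, 113299492 to 113337395, plus strand on GRCh37), had 63.0, 57.1 and 66.8 CPM in 786O shControl and 75.2, 65.1 and 74.6 CPM in 786O shBMAL1. It had 284, 281 and 275 CPM in WT8 shControl and 219, 228 and 222 CPM in WT8 shBMAL1. All 6 WT8 libraries lay far above all 6 of 786O, and in WT8 the shBMAL1 libraries lay below the controls without overlap. POLR1B was 4.50-fold higher in WT8 shControl than in 786O shControl (log2 2.17, SE 0.05, adjusted p 1.48e-28 in edgeR), the largest rise among the members, and 3.11-fold higher between the shBMAL1 groups. With shBMAL1 it was higher in 786O (log2 0.20, SE 0.05, adjusted p 0.00286), where the groups overlapped, and lower in WT8 (log2 -0.33, SE 0.05, adjusted p 6.33e-07).

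POLR1A, which encodes the largest, catalytic subunit, had 105, 101 and 98.1 CPM in 786O shControl and 125, 110 and 123 CPM in 786O shBMAL1. With wildtype VHL added back, WT8 had 85.8, 102 and 90.2 CPM with shControl and 133, 135 and 118 CPM with shBMAL1. It thus rose with shBMAL1 without overlap in both lines (log2 0.23, SE 0.06, adjusted p 0.00269 in 786O, and log2 0.47, SE 0.06, adjusted p 8.62e-08 in WT8, edgeR). Between the control groups the libraries overlapped, and the call of a lower level in WT8 (log2 -0.13, adjusted p 0.0521 in edgeR) was lost with DESeq2. The 2 large subunits form 1 enzyme, so their ratio was followed in each library. CPM of POLR1B over CPM of POLR1A was 0.563 to 0.681 in 786O shControl and 0.591 to 0.609 in 786O shBMAL1. In WT8 it ran from 2.75 to 3.31 for shControl and from 1.65 to 1.89 for shBMAL1, so the ratio differed between the lines in every library.

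POLR1C, a subunit shared with RNA polymerase III, had 45.7, 43.1 and 44.7 CPM in 786O shControl and 56.9, 54.3 and 53.6 CPM in 786O shBMAL1. The WT8 libraries had 83.3, 84.3 and 91.2 CPM with shControl and 74.8, 78.6 and 74.997 CPM with shBMAL1. The direction with shBMAL1 was opposite in the lines, higher in 786O (log2 0.30, SE 0.05, adjusted p 1.83e-05) and lower in WT8 (log2 -0.18, SE 0.05, adjusted p 0.00257, edgeR), with no overlap in either. POLR1E, a subunit specific to polymerase I, had 36.4, 33.2 and 37.3 CPM in 786O shControl and 43.6, 41.8 and 45.2 CPM in 786O shBMAL1. In WT8 it had 53.8, 51.6 and 47.5 CPM with shControl and 90.3, 82.0 and 79.1 CPM with shBMAL1. It rose in both lines, by 0.29 (SE 0.06) in 786O and by 0.72 (SE 0.06) in WT8 on the log2 scale, and more in WT8 (interaction log2 0.43, SE 0.09, adjusted p 1.11e-04 in edgeR).

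TCOF1 (chromosome 5, 149737192 to 149779871, plus strand) encodes treacle, the nucleolar cofactor of polymerase I whose gene is mutated in Treacher Collins syndrome. It had 326, 327 and 317 CPM in 786O shControl and 333, 325 and 316 CPM in 786O shBMAL1. In WT8 shControl it had 84.1, 84.5 and 81.3 CPM, and in WT8 shBMAL1 302, 287 and 276 CPM. WT8 shControl stood alone at a low level, and the other 9 libraries lay between 276 and 333 CPM. TCOF1 was 3.88-fold lower in WT8 shControl than in 786O shControl (log2 -1.96, SE 0.04, adjusted p 9.08e-30 in edgeR) and 3.46-fold higher in WT8 with shBMAL1 than with shControl (log2 1.79, SE 0.04, adjusted p 2.69e-28). These comparisons share the 3 WT8 shControl libraries. In 786O its log2 change with shBMAL1 was 0.01 (adjusted p 0.935 in edgeR), and the interaction was the largest of any member (log2 1.79, SE 0.06, adjusted p 1.21e-23). The proliferation list was lowest in the same 3 libraries (542 to 574 CPM summed), and its part in the TCOF1 values was not tested.

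**Figure D2:**
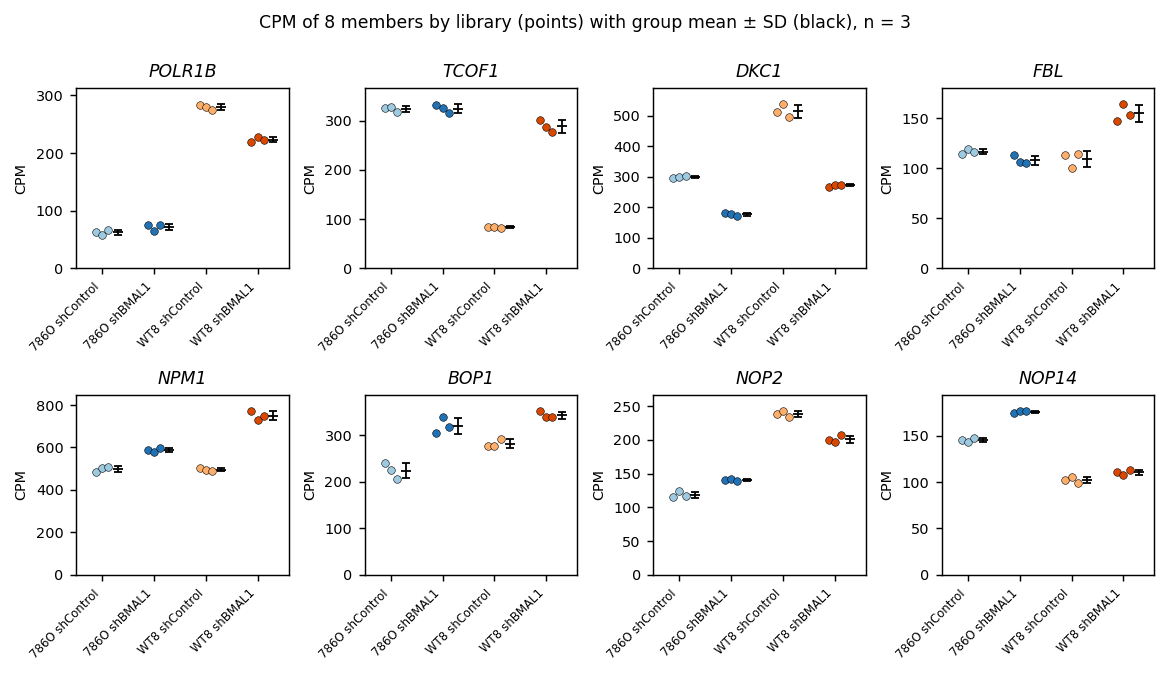
CPM (vertical, linear scale from 0) of 8 members in the 12 libraries, coloured by group, with the group mean and SD in black (n = 3). TCOF1 is low in WT8 shControl alone, POLR1B is high in both WT8 groups, and DKC1 is lower with shBMAL1 in either line.

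Box H/ACA snoRNPs carry 4 core proteins, and 1 of them changed unlike the rest. DKC1 (chromosome X, 153991017 to 154005964, plus strand) encodes dyskerin, the pseudouridine synthase itself, which is also a part of telomerase. It had 295, 297 and 303 CPM in 786O shControl and 181, 179 and 170.1 CPM in 786O shBMAL1. WT8 had 512, 536 and 494 CPM with shControl and 268, 272 and 274 CPM with shBMAL1. Within each line all shBMAL1 libraries lay below all controls, and WT8 shBMAL1 lay below even 786O shControl. The fall was 1.69-fold in 786O (log2 -0.76, SE 0.04, adjusted p 7.44e-17 in edgeR) and 1.90-fold in WT8 (log2 -0.92, SE 0.04, adjusted p 2.44e-20), the largest fall among the members in both. The 2 comparisons share no library. The fall was somewhat larger in WT8 (interaction log2 -0.16, SE 0.06, adjusted p 0.0203 in edgeR). Without shBMAL1, DKC1 was 1.72-fold higher in WT8 than in 786O (log2 0.78, SE 0.04, adjusted p 1.31e-18).

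NHP2, GAR1 and NOP10 encode the partners of dyskerin, which sit beside the enzyme in the particle. None of them was called with shBMAL1 in 786O, with log2 changes of 0.09, 0.10 and 0.09, where 48.9% of all genes were called. In WT8 all 3 were called higher, by 0.26 (adjusted p 1.43e-05), 0.28 (adjusted p 4.24e-04) and 0.24 (adjusted p 0.0422 in edgeR). There 69.8% of all genes were called, 32.9% of them all higher. The call of NOP10 was lost without WT8 shControl replicate 2 and without WT8 shBMAL1 replicate 2 or 3. The ratio of DKC1 to NHP2 in CPM was 2.62 to 2.70 in 786O shControl and 1.42 to 1.52 in 786O shBMAL1. In WT8 it ran from 4.26 to 5.04 for shControl and from 1.87 to 2.14 for shBMAL1. No 2 groups overlapped in this ratio.

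In the box C/D core, FBL (chromosome 19, 40325098 to 40337019, minus strand) encodes fibrillarin, the methyltransferase, while NOP56 and NOP58 encode the scaffold proteins that hold it. FBL had 114, 119 and 117 CPM in 786O shControl and 113, 106 and 105 CPM in 786O shBMAL1. The WT8 libraries had 113, 100.2 and 114 CPM with shControl and 147, 164 and 153.3 CPM with shBMAL1. The WT8 shBMAL1 libraries lay above the other 9. FBL rose in WT8 by 0.50 on the log2 scale with shBMAL1 (SE 0.05, adjusted p 8.90e-11 in edgeR). In 786O it was slightly lower (log2 -0.11, adjusted p 0.0885), a call that was lost with DESeq2 and with other scalings. The interaction was 0.61 (SE 0.07, adjusted p 6.33e-09 in edgeR). Between the control groups the libraries overlapped, and the log2 difference of -0.09 (adjusted p 0.0991) became 0.02 with library totals alone.

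NOP56 went the other way, rising in 786O (log2 0.23) and falling in WT8 (log2 -0.13, adjusted p 0.00852 in edgeR) with shBMAL1. NOP58 rose in both lines, by 0.33 and 0.11, though in WT8 the groups overlapped and the call was lost without WT8 shControl replicate 3 or WT8 shBMAL1 replicate 3. Both scaffold genes were higher in WT8 shControl than in 786O shControl (log2 0.39 and 0.57). The ratio of FBL to NOP56 in CPM was 0.313 to 0.338 in 786O shControl and 0.247 to 0.268 in 786O shBMAL1. In WT8 it ran from 0.204 to 0.245 for shControl and from 0.322 to 0.387 for shBMAL1. It was lower with shBMAL1 in 786O and higher with shBMAL1 in WT8.

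**Figure D3:**
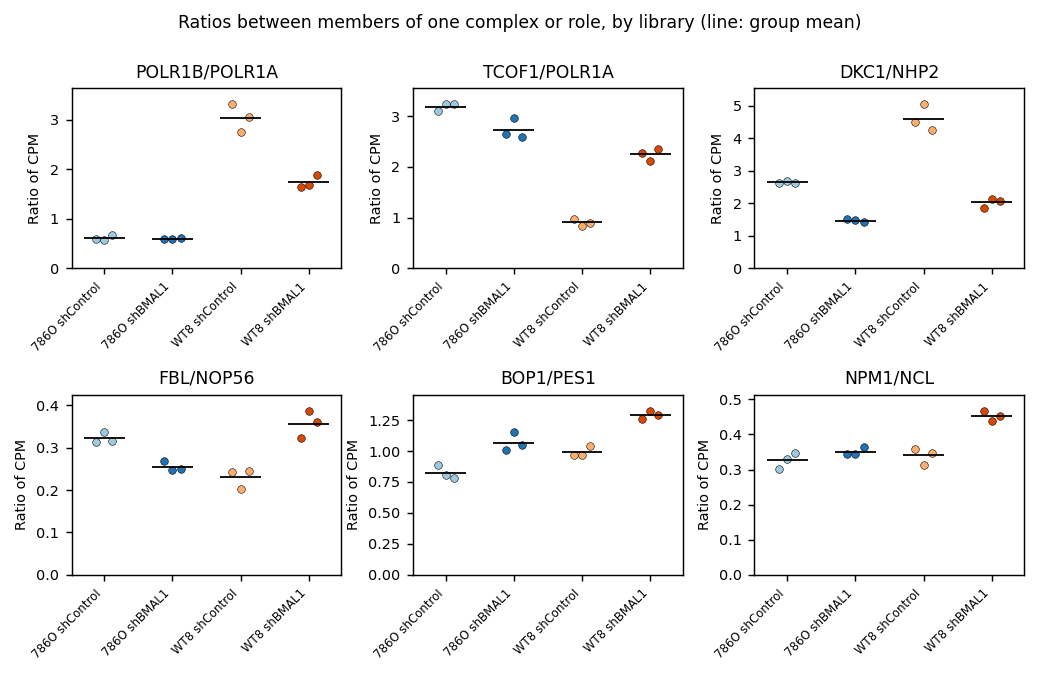
Ratio of CPM (vertical, linear scale from 0) between 6 pairs of members of 1 complex or role in each library, with points for libraries, coloured by group, and a line for the group mean. POLR1B over POLR1A differs between the lines, and DKC1 over NHP2 is lower with shBMAL1 in both lines.

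Small subunit assembly is covered by 12 members. With shBMAL1 in 786O, 6 were called higher and 1 lower (median log2 change 0.09), and in WT8 4 were called higher and 4 lower (median 0.01). WT8 shControl had 7 higher and 3 lower than 786O shControl. Over all genes 24.5% were called higher and 24.4% lower in 786O, 32.9% and 36.9% in WT8, and 39.3% and 40.1% between the control groups. The WT8 counts with shBMAL1 (33.3% each way) thus lay near the shares over all genes. HEATR1, the large scaffold of an early processome part that also promotes ribosomal RNA transcription, had 202, 192 and 186 CPM in 786O shControl and 176, 179 and 184 CPM in 786O shBMAL1. In WT8 it had 192, 212 and 198 CPM with shControl and 187, 196 and 183 CPM with shBMAL1. HEATR1 was called slightly lower in both lines (log2 -0.10, adjusted p 0.065, and log2 -0.09, adjusted p 0.084 in edgeR). Both calls sat near the threshold and were lost in several alternatives, and in WT8 the groups overlapped.

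NOP14, a component of the processome, was the 1 gene of these 12 that was called lower in WT8 in both comparisons of the lines. It had 146, 144 and 148 CPM in 786O shControl and 175, 176 and 176 CPM in 786O shBMAL1. WT8 had 103, 106 and 98.7 CPM with shControl and 111, 108 and 113 CPM with shBMAL1. All 6 WT8 libraries lay below all 6 of 786O, and shBMAL1 lay above shControl in each line. The difference between the lines was -0.51 (SE 0.04, adjusted p 9.31e-13) with shControl and -0.67 (SE 0.04, adjusted p 7.00e-16) with shBMAL1 on the log2 scale (edgeR).

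Among the other small subunit genes, RRP12, an assembly and export factor, was higher in 786O and lower in WT8 with shBMAL1 (log2 0.17 and -0.26) and differed most between the control groups (log2 0.85, adjusted p 4.82e-18 in edgeR). UTP20, a processome protein, rose with shBMAL1 in both lines (log2 0.17 and 0.39), as did BYSL, an assembly factor of the late precursor (log2 0.21 and 0.22). LTV1, which leaves the particle late in the cytoplasm, rose in 786O (log2 0.25). RRP9, a protein of the U3 snoRNP, fell in WT8 (log2 -0.32), and WDR75 rose there (log2 0.22). NAT10, which acetylates 18S ribosomal RNA, was called in opposite directions (log2 0.10 and -0.09) with adjusted p of 0.0905 and 0.0923 in edgeR, both lost at a threshold of 0.05. UTP15, WDR43 and NOC4L, all processome proteins, were called with shBMAL1 in neither line. UTP15 and WDR43 were higher in WT8 than in 786O in both comparisons of the lines (log2 0.63 and 0.27 between the control groups), and NOC4L was called in none of the 5 comparisons.

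Of the 14 large subunit genes, 9 were called higher and 2 lower with shBMAL1 in 786O, with a median log2 change of 0.17. In WT8 5 were called higher and 7 lower (median -0.07), and the interaction was called for 13, of which 3 were higher and 10 lower. Over all genes 24.5% were called higher and 24.4% lower in 786O, 32.9% and 36.9% in WT8, and 27.4% and 28.6% in the interaction. NOP2, a methyltransferase of 28S ribosomal RNA, had 115, 124 and 117 CPM in 786O shControl and 141, 142 and 139 CPM in 786O shBMAL1. The WT8 libraries had 238, 243 and 234 CPM with shControl and 199, 197 and 207 CPM with shBMAL1. The 4 groups did not overlap, and shBMAL1 moved the level of each line toward that of the other. NOP2 rose in 786O (log2 0.24, SE 0.04, adjusted p 1.82e-05) and fell in WT8 (log2 -0.25, SE 0.04, adjusted p 4.53e-06, edgeR), with an interaction of -0.49 (adjusted p 1.68e-08). The shControl groups differed by 1.01 (SE 0.04) on the log2 scale and the shBMAL1 groups by 0.52 (SE 0.04).

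RRS1, which brings the 5S particle into the large subunit precursor, showed the same order of groups. It had 83.8, 83.2 and 74.8 CPM in 786O shControl, 96.02, 94.3 and 92.6 CPM in 786O shBMAL1, 159, 152.8 and 158 CPM in WT8 shControl and 139.6, 129.7 and 124 CPM in WT8 shBMAL1. PPAN, a processing factor of the large subunit, had 71.2, 78.0 and 67.3 CPM in 786O shControl, 91.0, 97.2 and 86.0 CPM in 786O shBMAL1, 135, 139 and 144 CPM in WT8 shControl and 132, 125 and 128 CPM in WT8 shBMAL1. Neither gene had groups that overlapped within a line. With shBMAL1, RRS1 changed by 0.23 in 786O and -0.25 in WT8 (interaction log2 -0.48, SE 0.07, adjusted p 4.92e-07 in edgeR). The changes of PPAN were 0.34 and -0.12 (interaction log2 -0.46, SE 0.07, adjusted p 2.30e-06 in edgeR), and its call in WT8 was lost without WT8 shControl replicate 3 or WT8 shBMAL1 replicate 2. PPAN lies inside a readthrough transcript with P2RY11 on the same strand, so its counts are uncertain.

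The order 786O shControl, 786O shBMAL1, WT8 shBMAL1, WT8 shControl, from lowest to highest mean, held for 10 members, the most frequent order. The order with the WT8 groups exchanged held for 9. Orders were not counted over all genes. In all, 12 members were called in opposite directions with shBMAL1 in the lines, against 12.1% of all genes tested. POLR1B, POLR1C, NOP56, RRP12, NAT10, NOP2, PES1, RRS1, PPAN and RRP1 were higher in 786O and lower in WT8, and FBL and NOC3L the reverse. In each of these 12 the interaction was called too, but it is the difference of the same opposite changes and adds no separate evidence. FBL and NAT10 leave this set at an adjusted p under 0.05, and the other 10 stay. Another 14 members were called in the same direction in both lines, 11 higher and 3 lower, against 25.9% of all genes.

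**Figure D4:**
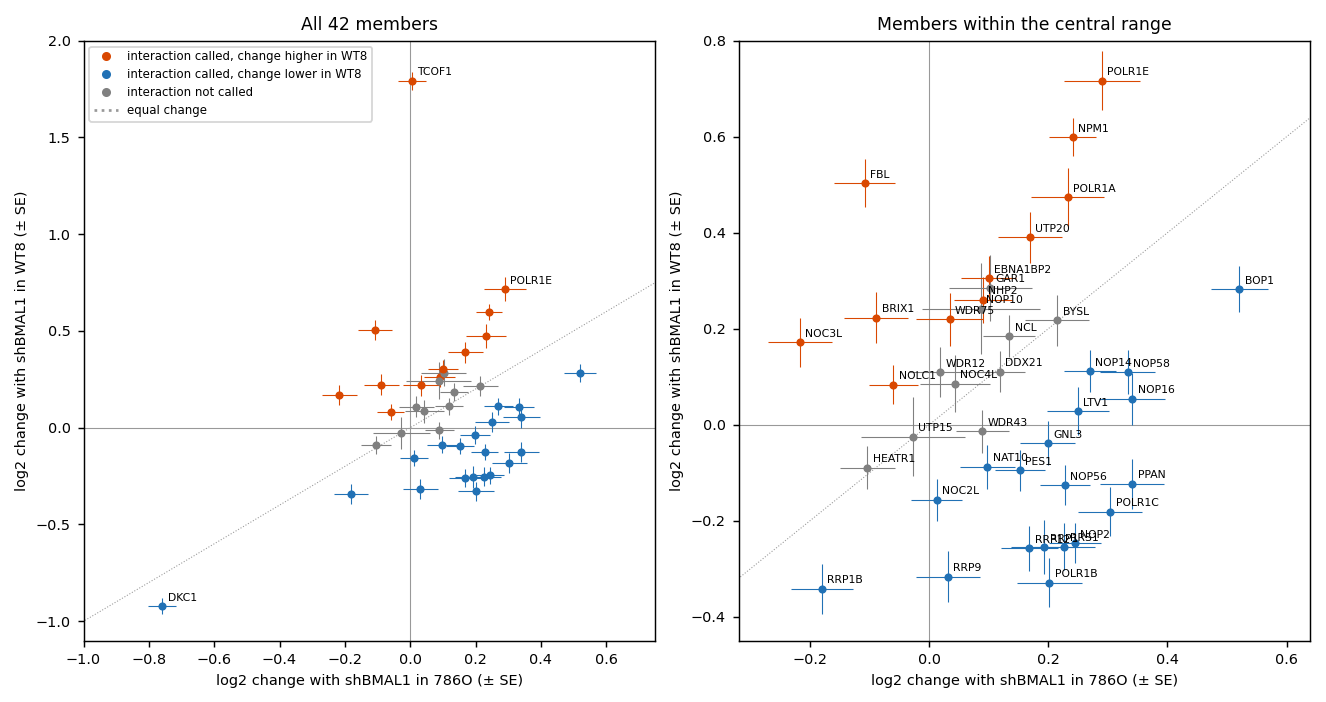
Log2 change with shBMAL1 in 786O (horizontal) against that in WT8 (vertical) for the 42 members, with SE bars, and a closer view of the central range at the right. The 2 axes share no library, points below the dotted line changed less or fell more in WT8, and TCOF1, at 0.01 in 786O and 1.79 in WT8, lies farthest from it.

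PES1, BOP1 and WDR12 form the complex that matures the 5.8S and 28S ends. PES1 had 269.7, 277 and 264 CPM in 786O shControl and 302, 294 and 304 CPM in 786O shBMAL1, and it had 285, 284 and 282 CPM in WT8 shControl and 279, 256 and 262 CPM in WT8 shBMAL1. Its changes were small and opposite, 0.15 (adjusted p 0.00339) in 786O and -0.10 (adjusted p 0.0457) in WT8 in edgeR, and the WT8 call was lost without WT8 shBMAL1 replicate 2 or 3. BOP1 (chromosome 8, 145486055 to 145515082, minus strand) had 239, 225 and 206 CPM in 786O shControl and 305, 339 and 318 CPM in 786O shBMAL1, and it had 277, 276 and 292 CPM in WT8 shControl and 352, 338 and 338 CPM in WT8 shBMAL1. BOP1 rose without overlap in both lines, and its rise in 786O was the largest of any member there (log2 0.52, SE 0.05, adjusted p 4.25e-11 in edgeR, 1.43-fold), with 0.28 (SE 0.05) in WT8. WDR12 changed by 0.02 in 786O (adjusted p 0.812) and 0.11 in WT8 (adjusted p 0.0669 in edgeR). The ratio of BOP1 to PES1 in CPM was 0.782 to 0.887 in 786O shControl and 1.01 to 1.15 in 786O shBMAL1. In WT8 it ran from 0.971 to 1.04 for shControl and from 1.26 to 1.32 for shBMAL1, higher with shBMAL1 in each line.

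NOC3L, a partner in the export of the large precursor, had 78.3, 72.9 and 76.4 CPM in 786O shControl, 67.9, 67.1 and 60.8 CPM in 786O shBMAL1, 104, 108 and 97.8 CPM in WT8 shControl and 111, 119.5 and 119 CPM in WT8 shBMAL1. It fell in 786O (log2 -0.22, SE 0.05, adjusted p 0.00112) and rose in WT8 (log2 0.17, SE 0.05, adjusted p 0.00415, edgeR), the reverse of NOP2. Its partner NOC2L had 217, 208 and 218 CPM in 786O shControl, 221, 216 and 212 CPM in 786O shBMAL1, 188, 183 and 189 CPM in WT8 shControl and 172, 171 and 160.2 CPM in WT8 shBMAL1. NOC2L was lower in WT8 in both comparisons of the lines (log2 -0.20 and -0.37), while NOC3L was higher in both (log2 0.45 and 0.83). RRP1B, a nucleolar partner of a protein phosphatase, had 103, 105 and 101 CPM in 786O shControl, 93.8, 87.9 and 91.7 CPM in 786O shBMAL1, 89.1, 101 and 92.8 CPM in WT8 shControl and 78.4, 70.1 and 74.7 CPM in WT8 shBMAL1. RRP1B fell with shBMAL1 in both lines (log2 -0.18, SE 0.05, adjusted p 0.00465 in 786O, and log2 -0.34, SE 0.05, adjusted p 5.43e-07 in WT8, edgeR), while its paralogue RRP1 changed by 0.19 in 786O and -0.26 in WT8.

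NOP16, an assembly factor of the large precursor, had 93.9, 83.6 and 97.3 CPM in 786O shControl, 116, 123 and 109 CPM in 786O shBMAL1, 152.9, 154 and 143 CPM in WT8 shControl and 166, 152 and 149.6 CPM in WT8 shBMAL1. Its rise in 786O was called (log2 0.34, SE 0.06, adjusted p 4.91e-06 in edgeR), unlike its change in WT8 (log2 0.05, adjusted p 0.389). GNL3, which encodes the GTPase nucleostemin, was likewise higher in 786O (log2 0.20) and not called in WT8 (log2 -0.04, adjusted p 0.477 in edgeR). EBNA1BP2 and BRIX1, both assembly factors of the early precursor, rose in WT8 by 0.31 and 0.22. In 786O EBNA1BP2 had an adjusted p of 0.0791 (log2 0.10), lost in several alternatives, and BRIX1 was not called (log2 -0.09, adjusted p 0.19 in edgeR).

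The RNAs of all 4 abundant nucleolar proteins and helicase genes were called higher in WT8 with shBMAL1, where 32.9% of all genes were. Those of NOLC1 and DDX21 rose by little. NPM1 (chromosome 5, 170814120 to 170838814, plus strand), which encodes the histone and ribosome chaperone nucleophosmin, had 483, 503 and 509 CPM in 786O shControl and 588, 580.1 and 598 CPM in 786O shBMAL1. In WT8 it had 505, 492 and 489 CPM with shControl and 772, 732 and 748 CPM with shBMAL1. Both control groups lay in 1 range, and shBMAL1 lay above it in either line, by 0.24 (SE 0.04, adjusted p 6.23e-06) in 786O and 0.60 (SE 0.04, adjusted p 1.77e-15) in WT8 on the log2 scale (edgeR). The rise was larger in WT8 (interaction log2 0.36, SE 0.06, adjusted p 1.80e-06). Many processed pseudogenes carry the name of NPM1, 49 in the annotation used, so part of its reads may have been assigned elsewhere.

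NCL (chromosome 2, 232318242 to 232348352, minus strand), which encodes nucleolin, had 1605, 1519.8 and 1464 CPM in 786O shControl and 1707, 1691 and 1639 CPM in 786O shBMAL1. WT8 had 1409, 1572 and 1405 CPM with shControl and 1654, 1673 and 1658 CPM with shBMAL1. It rose slightly in both lines (log2 0.13, adjusted p 0.0129, and log2 0.18, adjusted p 4.17e-04 in edgeR), and its interaction was not called (log2 0.05, SE 0.06). The difference between the lines was -0.06 with shControl, and neither comparison of the lines was called. NOLC1, a carrier of snoRNPs in the nucleolus, rose in WT8 alone in its calls (log2 0.08, adjusted p 0.0744, against -0.06 in 786O). DDX21, a helicase that acts on ribosomal RNA transcription and processing, rose by 0.12 and 0.11 and was higher in WT8 by 0.51 between the control groups. In WT8 the groups overlapped for DDX21. The WT8 calls of NOLC1 and DDX21 were each lost without WT8 shControl replicate 1 or 3, and that of NOLC1 also without WT8 shBMAL1 replicate 3, with halved counts and at a threshold of 0.05.

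Promoter letters were read from the RefSeq promoter table (GRCh38.p14, 250 bases before to 50 after each annotated start), which had 41 entries for 34 of the members. POLR1E, TCOF1, NOP58, RRP12, BOP1, RRS1, RRP1B and NOLC1 had no entry. The motif CACGTG reads the same on both strands, and 17 of the 41 member promoters held it (41.5%), against 9.10% of the promoters of tested genes and 7.26% of all 35116 promoters. By gene, 16 of 34 members (47.1%) had it in at least 1 promoter, against 12.2% of tested genes with an entry. A form of the hypoxia-type core, ACGTG on either strand, is part of every CACGTG. It was in 51.2% of the member promoters and in 24.8% of those of tested genes. The other form, GCGTG on either strand, was in 68.3% and 46.8%. Of the 21 member promoters with ACGTG, 17 held it within the E-box. Among promoters of tested genes, 1522 of the 4152 with ACGTG did so. The higher share of ACGTG among the members thus came with the E-box and was not a separate excess. This does not extend to GCGTG, which CACGTG does not contain. The higher share of GCGTG among the members was not tested. A match of letters is a description and does not show that a factor binds there.

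Outside the 12 members called in opposite directions with shBMAL1, the motif stood in EBNA1BP2, WDR43, RRP9, GNL3, NOP14, GAR1, BYSL, LTV1, DDX21, UTP20 and NOP10. Of those 12, RRP12 and RRS1 had no entry and 5 of the others held the motif, where 16 of all 34 members with an entry did. The stretches around it are shown for these 5, with CACGTG in capitals and each read 5′ to 3′ on the strand of the gene.
NOC3L promoter, chr10:94362903-94362932, minus strand: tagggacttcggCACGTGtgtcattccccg
NAT10 promoter, chr11:34105602-34105631, plus strand: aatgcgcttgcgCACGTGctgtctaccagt
NOP2 promoter, chr12:6568242-6568268, minus strand: aggtccggattgCACGTGgagggccgc
FBL promoter, chr19:39846356-39846385, minus strand: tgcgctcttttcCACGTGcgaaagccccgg
PES1 promoter, chr22:30591880-30591909, minus strand: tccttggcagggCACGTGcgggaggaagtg

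Counted from the annotated start, the motif began at position -15 in NAT10, 6 in FBL, 13 in PES1, 19 in NOC3L and 35 in NOP2. DKC1, with the largest fall with shBMAL1, and POLR1B, with the largest difference between the lines, had no CACGTG in their windows. POLR1B is also among the members called in opposite directions. Their promoters are shown whole, with GCGTG or its complement CACGC in capitals.
POLR1B promoter, chr2:112541786-112542085, plus strand: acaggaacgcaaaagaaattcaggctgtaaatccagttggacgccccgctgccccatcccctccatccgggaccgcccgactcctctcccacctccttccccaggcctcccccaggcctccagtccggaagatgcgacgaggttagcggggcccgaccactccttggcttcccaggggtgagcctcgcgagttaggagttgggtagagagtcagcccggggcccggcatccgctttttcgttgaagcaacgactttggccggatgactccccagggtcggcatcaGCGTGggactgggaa
POLR1B promoter, chr2:112542215-112542514, plus strand: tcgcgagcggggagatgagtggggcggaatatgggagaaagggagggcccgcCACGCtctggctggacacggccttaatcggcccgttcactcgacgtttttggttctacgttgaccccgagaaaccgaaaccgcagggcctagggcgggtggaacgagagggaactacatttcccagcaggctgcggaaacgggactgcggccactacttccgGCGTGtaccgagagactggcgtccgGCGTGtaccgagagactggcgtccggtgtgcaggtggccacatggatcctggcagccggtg
DKC1 promoter, chrX:154762614-154762913, plus strand: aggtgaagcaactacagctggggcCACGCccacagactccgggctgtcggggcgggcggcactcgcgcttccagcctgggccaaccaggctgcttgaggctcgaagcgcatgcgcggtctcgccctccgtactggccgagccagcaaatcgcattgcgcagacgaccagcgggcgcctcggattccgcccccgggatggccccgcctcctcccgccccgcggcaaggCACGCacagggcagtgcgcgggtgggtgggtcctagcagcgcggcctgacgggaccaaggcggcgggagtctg

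The 16 members with CACGTG had a median log2 change with shBMAL1 of 0.11 in 786O (10 called higher, 2 lower) and 0.11 in WT8 (9 higher, 4 lower). The 18 members with an entry and no CACGTG had 0.11 in 786O (9 higher, 2 lower) and 0.01 in WT8 (7 higher, 8 lower). Between the control groups the medians were 0.34 with the motif and 0.07 without it. Over all genes 24.5% were called higher and 24.4% lower with shBMAL1 in 786O, and 32.9% and 36.9% in WT8. These values are descriptions of small sets.

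A wider list held 119 other ribosome biogenesis genes, all of them tested. With shBMAL1 in 786O 51 were called higher and 15 lower (median log2 0.08), and in WT8 48 higher and 37 lower (median 0.02). WT8 shControl had 74 higher and 28 lower than 786O shControl (median 0.30), against the members' 25 and 8. In 786O these were 42.9% higher and 12.6% lower, against 24.5% and 24.4% of all genes. The WT8 counts were 40.3% and 31.1%, against 32.9% and 36.9% of all genes. Those between the control groups were 62.2% and 23.5%, against 39.3% and 40.1%. In 786O the extremes of both lists lay outside the members. RIOK1, a kinase of late small subunit assembly, fell in both lines (log2 -0.79, SE 0.09, adjusted p 1.15e-08 in 786O, and log2 -1.02, SE 0.09, adjusted p 3.29e-12 in WT8, edgeR), as DKC1 did. TWISTNB (POLR1F), a stalk subunit of polymerase I, rose most in 786O (log2 0.62). EXOSC8, of the RNA exosome, was at -1.30 between the control groups and at 1.49 with shBMAL1 in WT8, comparisons that share the WT8 shControl libraries. Unlike TCOF1 it was also called in 786O, where it fell with shBMAL1 (log2 -0.32, adjusted p 5.14e-04 in edgeR).

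The ribosomal proteins themselves are given for comparison. Of 85 genes of cytosolic ribosomal proteins tested, 17 were called higher and 13 lower in 786O (median 0.01), and 32 higher and 30 lower in WT8 (median 0.05). Between the control groups 64 were higher and 11 lower in WT8 (median 0.40). Of 77 genes of mitochondrial ribosomal proteins, which are assembled outside the nucleolus, 34 were higher and 6 lower in 786O (median 0.07). In WT8 58 of them were higher and 4 lower (median 0.29). Between the control groups 38 of them were higher and 27 lower in WT8 (median 0.06). The shares over all genes were 24.5% higher and 24.4% lower in 786O, and 32.9% and 36.9% in WT8. Between the control groups they were 39.3% and 40.1%. The WT8 counts of the cytosolic list with shBMAL1 (37.6% higher and 35.3% lower) thus lay near the shares over all genes. The differences between these lists were not tested.

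**Figure D5:**
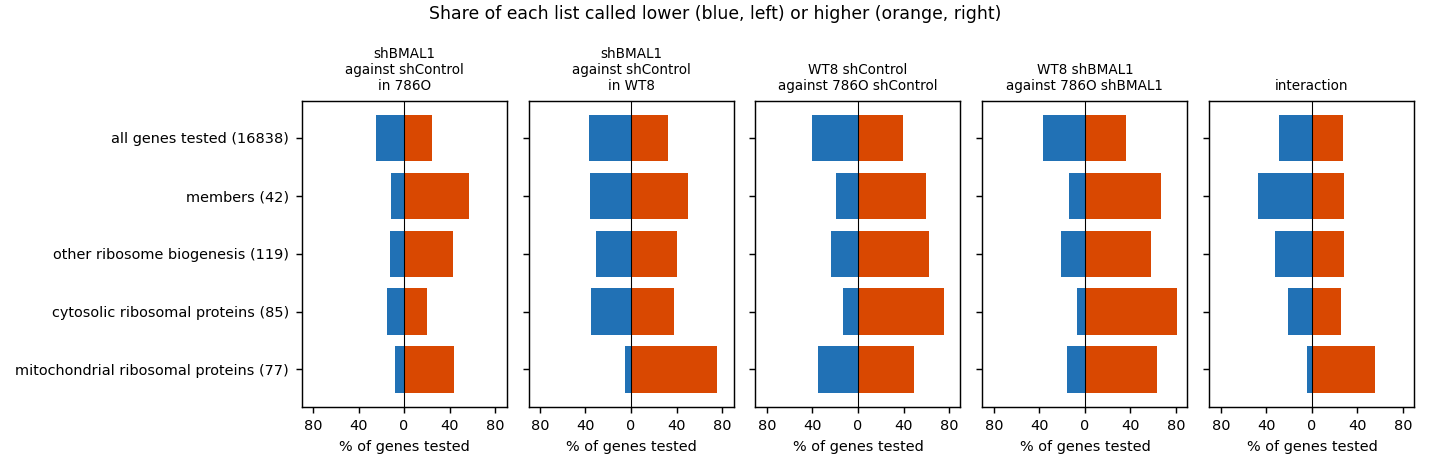
Share of the genes tested in each list (horizontal, percent) called lower (blue, leftward) or higher (orange, rightward) in each of the 5 comparisons. With shBMAL1 in 786O the members have 24 of 42 higher and 5 lower, while all genes are split evenly.

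Of the members, 8 have small nucleolar or Cajal body RNAs annotated inside them, namely NOP56, NOP58, DKC1, WDR43, PPAN, GNL3, NCL and POLR1C. With shBMAL1 in 786O, 6 of these were called higher, DKC1 was called lower and WDR43 was not called. In WT8, 2 were called higher (NOP58 and NCL), 4 lower (NOP56, DKC1, PPAN and POLR1C) and 2 were not called. Over all 42 members 24 were higher and 5 lower in 786O, and 21 and 15 in WT8. Over all genes 24.5% were higher and 24.4% lower in 786O, and 32.9% and 36.9% in WT8. With 8 genes, no difference of these from the other members was tested. The mRNA libraries used here do not measure the small nucleolar RNAs.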

How the data were processed

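RNA was sequenced from 12 cultures (4 groups of 3 biological replicates). Per the labels, stranded mRNA libraries were made. According to the methods of the study the authors had reads in pairs, used SeqMan NGen for alignment to GRCh37 and ArrayStar for gene counts, whereas the submitters' processing notes name hg38, STAR and DESeq2. The conflict could not be settled. Whether counting used the strand and the handling of reads with several alignments are not given in the sources used here.

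The authors deposited estimated counts for each gene, not scaled between libraries, and these were used. Of 38074 lines, 98 shared 45 names and were summed by name. A stand-in of 0.028 for zero (47.0% of values) became 0, and other values were rounded, since 5.67% were not whole. The choice of tests had assumed whole counts. Counts of 2 (14891) outnumbered counts of 1 (11390), so mates may have been counted separately.

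Of 26938 genes with a count, filterByExpr kept 16838 and removed 10100. Group means of all 12 libraries were modelled in edgeR 4.0.16, under R 4.3.3 (TMM scaling, robust quasi-likelihood F test), with Benjamini-Hochberg adjustment over all tested genes and calls at an adjusted p under 0.1, the rate used in the study. TMM factors ran from 0.948 to 1.04 and the common biological coefficient of variation was 5.70%. SE is the size of the log2 change over the square root of F. Alternatives were DESeq2 1.42.0, other scalings, no filter, thresholds of 0.05 and of 1.5-fold, halved counts, fewer samples in the fit and a replicate block. Adjusted p-values rest on the spread between replicate cultures, estimated over the 4 groups in 1 fit. Each group came from 1 line, so these values do not cover the spread between separately derived lines. Members with overlapping genes or processed copies are uncertain, since counting could split their reads. Of the 42 members, 20 overlap another gene in GENCODE 44 on GRCh37, the source of gene positions and exon lengths.

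The members and lists were chosen with earlier results of these data known. Values per library are given for POLR1A, FBL, DKC1, HEATR1, PES1, NPM1 and NCL and, in each comparison, for the called members with the 3 largest rises and the 3 largest falls. Other ribosome biogenesis genes were named from the 3 largest rises and falls per comparison.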

Additional observations from a re-analysis of the deposited data

Results flagged for a closer look

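The change with shBMAL1 differed between the lines for 32 of the 42 members by the edgeR interaction test, where 56% of all genes differed so. Values are the log2 change in WT8 minus that in 786O. Among the genes of RNA polymerase I the difference was 1.79 for TCOF1, 0.43 for POLR1E and 0.24 for POLR1A, against -0.53 for POLR1B and -0.48 for POLR1C. Subunits of 1 enzyme thus lay on both sides of 0. In the snoRNP cores FBL stood at 0.61 and NHP2 at 0.17, while NOP56 stood at -0.35, NOP58 at -0.22 and DKC1 at -0.16.

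In small subunit assembly UTP20 (0.22) and WDR75 (0.19) lay above 0, and RRP12 (-0.43), RRP9 (-0.35), LTV1 (-0.22), NAT10 (-0.19) and NOP14 (-0.16) below it. In large subunit assembly NOC3L (0.39), BRIX1 (0.31) and EBNA1BP2 (0.21) lay above 0. The other 10 lay below it, with NOP2 at -0.49, RRS1 at -0.48, PPAN at -0.46, RRP1 at -0.45, NOP16 at -0.29, PES1 at -0.25, BOP1 at -0.24, GNL3 at -0.24, NOC2L at -0.17 and RRP1B at -0.16. NPM1 differed by 0.36 and NOLC1 by 0.14. The 12 proliferation markers were all higher in this interaction (median 2.21), and their part in these values was not tested.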

How the results depend on the processing

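Counts of members called and their medians moved as follows. In 786O the 5 members called lower with shBMAL1 became 3 at an adjusted p under 0.05, 3 with DESeq2 and 3 to 5 when single libraries were left out (3 without 786O shBMAL1 replicate 2). Testing against a fold change of 1.5 left 0 higher and 1 lower in 786O, 2 and 1 in WT8, 8 and 1 between the control groups, 3 and 1 between the shBMAL1 groups, and 1 and 0 for the interaction. In the same order 990, 4314, 6992, 5024 and 3133 of all 16838 genes were called so. In WT8 the median was 0.070 with halved counts, 0.11 with only the groups compared, and 0.070 to 0.099 without single libraries. Between the control groups it was 0.29 with DESeq2's size factors in edgeR and in DESeq2, 0.28 with halved counts and with only the groups compared, 0.26 to 0.29 without single libraries, and 0.39 with library totals alone, where 3 members were called lower. Between the shBMAL1 groups it was 0.34 with library totals alone and 0.21 to 0.27 without single libraries. The median interaction was -0.072 with DESeq2's size factors and with DESeq2, -0.069 with library totals and with halved counts, -0.039 without a filter, and -0.11 to -0.036 without single libraries. Library totals alone turned the line difference of FBL to 0.025 and of NPM1 to 0.11 with shControl, and that of NCL to 0.089 with shBMAL1, by construction of the scaling.

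Calls near the threshold rested on single libraries. In WT8, 8 calls were lost without WT8 shControl replicate 3 (NOP58, HEATR1, NOP14, NAT10, WDR12, PPAN, NOLC1 and DDX21), of which WDR12, NOLC1 and DDX21 were also lost without WT8 shControl replicate 1. Others were lost without single further libraries of WT8 (NOP10 and PES1). In 786O the calls of FBL, HEATR1, NAT10 and EBNA1BP2 were each lost without 1 or another library of that line, DDX21 without 786O shControl replicate 2, and UTP20 and NCL without 786O shControl replicate 3. Between the control groups POLR1A, FBL, WDR75 and RRP1B, and between the shBMAL1 groups BOP1, were each called with all libraries and lost without at least 1 of them, as were RRP1B, WDR75, NOP14 and NHP2 in the interaction. Same-numbered replicates were not paired, with correlations of their deviations from -0.046 to 0.048 over 18 pairs of libraries. A replicate block gave 23 higher and 4 lower in 786O and 21 higher and 14 lower in WT8. The cause of the changes other than by scaling was not tested.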

Other observations

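Outside the 42 members, 119 other ribosome biogenesis genes were tested, and the 3 with the largest rise and fall in edgeR are given for WT8. EXOSC9, a subunit of the RNA exosome, rose there with shBMAL1 by 1.08 (SE 0.07) on the log2 scale, and EMG1, a methyltransferase of 18S ribosomal RNA, by 1.08 (SE 0.05), both next below EXOSC8. UTP3 and SURF6, nucleolar assembly factors, fell there by 0.86 (SE 0.06) and by 0.81 (SE 0.06), next after RIOK1. In 786O the log2 changes of EXOSC9, EMG1, UTP3 and SURF6 were 0.05, 0.00, -0.03 and 0.04, and none was called in edgeR, while the interaction of each was. UTP3 (log2 1.60, SE 0.06) and MYBBP1A, a nucleolar partner of MYB (log2 1.54, SE 0.04), differed most upward between WT8 shControl and 786O shControl. The proliferation list was low in the same WT8 shControl libraries, and its part in these values was not tested.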
